A study of Homo sapiens with 8 samples.

Results

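The genes examined here encode the proteasome, with its activators, its inhibitor and its assembly chaperones. They were chosen by name: every protein-coding gene of GENCODE v29 whose symbol is PSMA, PSMB, PSMC, PSMD, PSME, PSMF or PSMG followed by a number, which gave 48 of the 19864 protein-coding genes on the autosomes and X. PSMB11, the catalytic subunit of the thymic proteasome, has no annotated intron and could not be measured from junction reads. PSMA8, a testis-specific alpha subunit, had no read in any library. The other 46 genes passed edgeR's expression filter in every comparison, with 4325 (PSMB8) to 328440 (PSMD2) unique junction reads over the 8 libraries.

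The proteasome is the barrel-shaped protease that degrades proteins tagged with ubiquitin. Its 20S core is a stack of alpha rings, which control entry, around beta rings, in which PSMB5, PSMB6 and PSMB7 carry the active sites. In blood-forming and interferon-exposed cells PSMB8, PSMB9 and PSMB10 can take the places of these 3 subunits and make the immunoproteasome, known for cutting peptides for MHC class I. The 19S cap has a base with a ring of ATPases that unfolds substrates and a lid that removes ubiquitin. Alternative caps are the PA28 and PA200 activators, and transcription of most subunits is raised together by NRF1, the product of NFE2L1, when proteasome activity falls short.

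RNA was sequenced from K562, an established human erythroleukaemia line, carrying SF3B1 as wild type or with the substitution K700E. SF3B1 belongs to the U2 snRNP, which binds the branch point and so sets which 3′ splice site (acceptor) is used; K700E is recurrent in myelodysplastic syndromes. Every group was treated with doxycycline at 1 ug/ml, which per the labels induced the modified allele, and was sampled at day 4 or day 8. The 4 groups of 2 libraries were wild type day 4, K700E day 4, wild type day 8 and K700E day 8; nothing in the labels says whether a line is 1 clone or whether replicates were separate cultures, so p-values measure only the spread between these libraries.

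The libraries held 49297438 to 77682891 unique junction reads each. At day 4 the labels matched the acceptors known to respond to K700E: in MAP3K7, DLST, TMEM14C, DPH5 and ENOSF1 the median use of the cryptic acceptor was 3.46% and 4.00% in wild type against 59.3% and 56.8% in K700E. At day 8 the same median was 2.01% and 70.7% under the wild-type label and 8.77% and 62.4% under the K700E label, so 1 library of each label went against it and each result that rests on day 8 genotype labels is given as labelled, library by library. Libraries of day 4, those labelled wild type day 8 and those labelled K700E day 8 were aligned in 3 different months, per the file headers, so the alignment run cannot be told apart from the day, nor at day 8 from the label. The erythroid markers summed to 982 to 2060 CPM (junction reads scaled to a common library total), of which TFRC alone gave 611 to 1440 CPM. A label calls the cells epithelial. CDH1, the adhesion molecule that defines epithelium, was at 0 to 0.0418 CPM, while the keratin gene KRT18 was at 218 to 1190 CPM.

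Junction reads were summed over the annotated introns of each gene, and levels are CPM after TMM scaling. For PSMA1, PSMA2, PSMA6, PSMB10 and PSMD9, some introns are also annotated to a second gene, and the levels given here include those introns. This matters most for PSMA2, of whose 167651 reads only 474 lay in introns of its own. Levels of different genes are compared only per intron, as the mean CPM over the introns of 1 reference transcript.

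**Figure D1:**
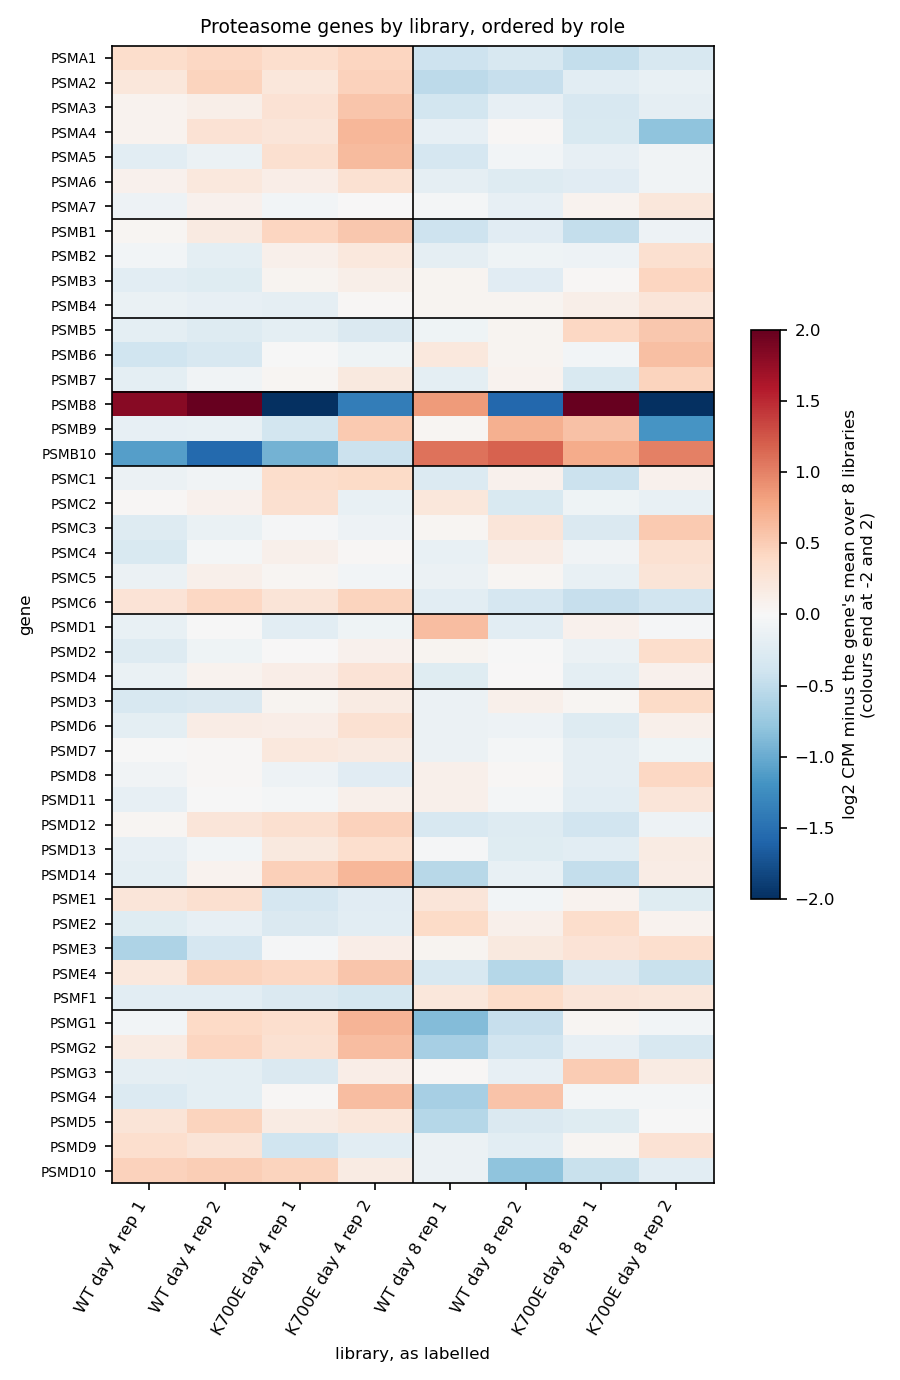
Level of the 46 measured proteasome genes (rows, ordered by role, lines between roles) in each of the 8 libraries (columns, as labelled), as log2 CPM minus the gene's own mean over the 8 libraries. PSMB8 spans -2.59 to 2.73 and PSMB10 -1.56 to 1.18, while the colours of most other rows stay pale.

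Most proteasome genes varied by less than 2 times over the 8 libraries, a range that was not measured over all genes. The highest library exceeded the lowest by a median of 1.75 times over the 46 genes and by less than 2 times in 34 of them. PSMD7, a scaffold of the lid, varied least, by 1.30 times. PSMB8 varied by 39.9 times, PSMB10 by 6.69 times and PSMB9 by 3.72 times, and the next were the assembly chaperone PSMG1 at 2.91 times and the alpha subunit PSMA4 at 2.77 times. The 3 largest ranges thus belonged to the 3 immunoproteasome subunits, as the map of the genes by library shows.

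Per intron, the alpha subunits and the ATPases lay closer together than the beta subunits, and than the lid subunits when PSMD6 is counted. The 7 alpha subunits, present in equal numbers in each ring, had mean levels over the 8 libraries of 32.5 (PSMA3) to 62.1 (PSMA5) CPM per intron, a 1.91-fold range around a median of 42.8. The 6 base ATPases lay between 19.5 (PSMC6) and 32.1 (PSMC2) CPM per intron, a 1.65-fold range. Lid subunits were spread 4.75-fold, from PSMD6 at 8.84 to PSMD14, the deubiquitinase of the lid, at 42.0. The wide range of the lid came from PSMD6 alone, since the next lowest lid subunit, PSMD12, was at 23.8. The structural and constitutive beta subunits ran from PSMB6 at 20.3 to PSMB1 at 88.4, a 4.35-fold range. On the same mean the immunoproteasome subunits lay below all of these, with PSMB8 at 1.89, PSMB9 at 4.59 and PSMB10 at 7.86 CPM per intron. In the 4 day 8 libraries, however, PSMB10 was at 10.4 CPM per intron or above and PSMD6 at 9.40 or below.

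At day 4 no proteasome gene passed the test between K700E and wild type, and more of them lay above wild type than below it in both K700E libraries. By edgeR's quasi-likelihood test 0 of 46 had an adjusted p under 0.05, against 74 of 13991 genes (0.529%) in all; 12 of the 46 had an unadjusted p under 0.05, 9 of them higher (10.8% of all genes) and 3 lower (10.5%). DESeq2 called 8 of the 46, against 11.7% of all genes: PSMA5, PSMC1, PSMD3, PSMD14 and PSME3 higher and PSMB8, PSMD9 and PSME1 lower. The median log2 change was 0.18 over the 46 genes and 0.02 over all genes. It was 0.09 over the 46 genes (0.04 over all) without wild-type replicate 1 and 0.25 (0.03 over all) without wild-type replicate 2. Without K700E replicate 1 it was 0.25 (-0.01 over all), and without K700E replicate 2 it was 0.11 (0.0 over all). Both K700E libraries lay above both wild-type libraries in 20 of the 46 (43.5%, against 27.3% of all genes) and below them in 7 (15.2%, against 27.5%).

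**Figure D2:**
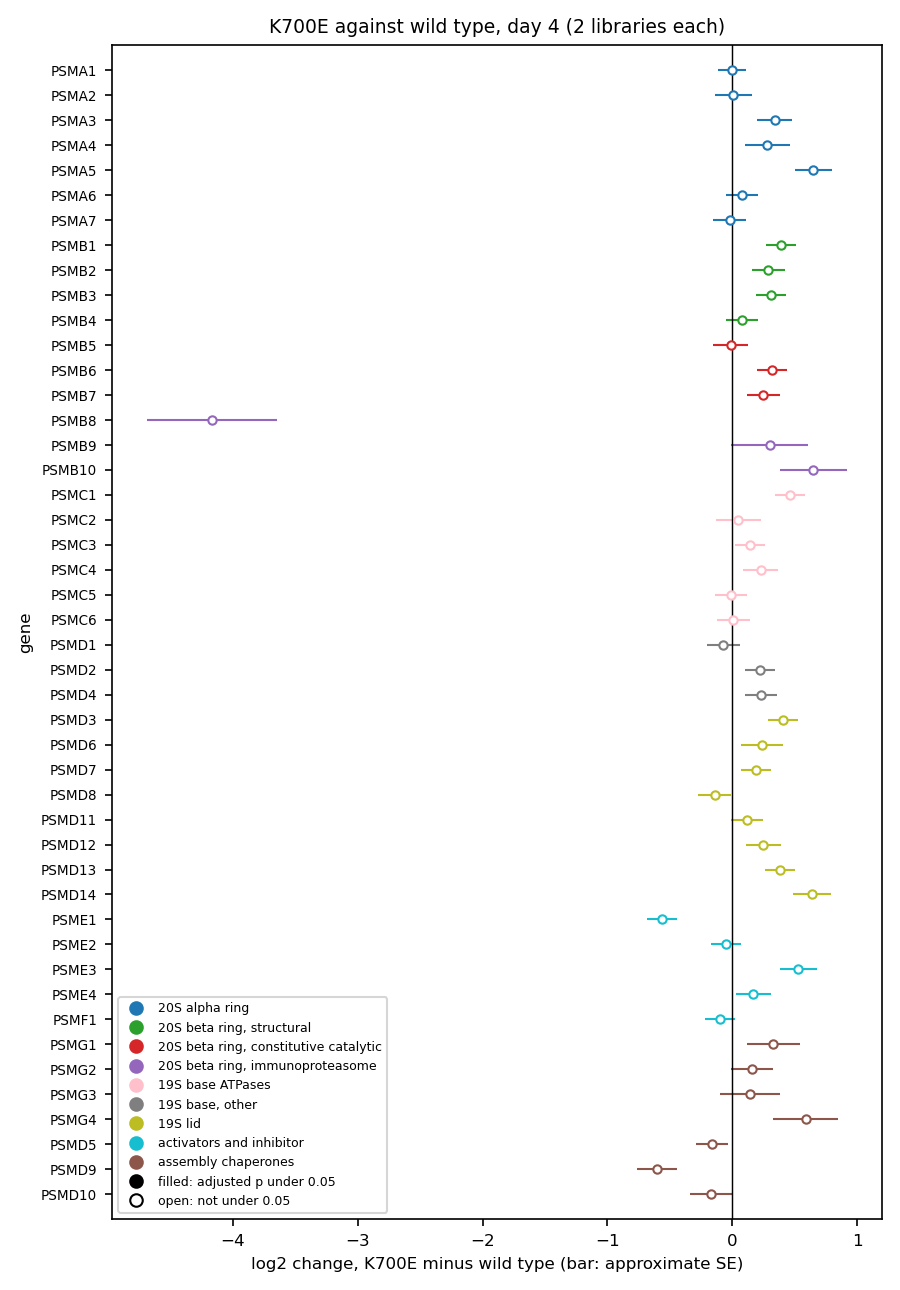
Change of each measured proteasome gene (rows, coloured by role) between K700E and wild type at day 4, as log2 change with its approximate SE (2 libraries per group). Every point is open, since no adjusted p was under 0.05, and PSMB8 at -4.17 stands apart from the others, which lie between -0.60 and 0.65.

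Among the alpha subunits, PSMA5 showed the widest difference. Its level was 419 and 450 CPM in wild type at day 4 and 604 and 757 CPM in K700E (435 ± 21.8 and 680 ± 109, SD, n = 2). The groups did not overlap, and the log2 change was 0.65 (SE 0.15, adjusted p 0.115 by edgeR). At day 8 PSMA5 lay at 385 and 468 CPM under the wild-type label and 434 and 464 under the K700E label, where the groups overlapped. PSMA3 also lay above wild type in both K700E libraries (334 and 347 against 390 and 467 CPM), while PSMA1, PSMA2, PSMA4, PSMA6 and PSMA7 overlapped between the groups, with log2 changes of -0.02 to 0.28 when shared introns are counted.

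The 4 structural beta subunits all had log2 changes above 0 at day 4 (51.4% of all genes did), with a median of 0.30, and none passed the test. PSMB1 was at 439 and 488 CPM in wild type and 581 and 627 CPM in K700E, log2 change 0.39 (SE 0.12, adjusted p 0.171 by edgeR). PSMB2 and PSMB3 likewise did not overlap between the groups, at log2 changes of 0.29 and 0.31, and PSMB4 did, at 0.08. Of the constitutive catalytic subunits, PSMB6 (caspase-like activity) was at 75.7 and 79.9 CPM in wild type and 99.7 and 94.6 CPM in K700E. PSMB7 (trypsin-like) was at 233 and 254 against 274 and 305 CPM, and PSMB5 (chymotrypsin-like, the target of bortezomib) at 43.0 and 41.5 against 43.1 and 40.6 CPM. PSMB5 thus differed by less than the spread between replicates.

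PSMB8, the immunoproteasome counterpart of PSMB5, had the largest difference of the 46 genes. It lies on chromosome 6 from 32840717 to 32844703 (hg38, minus strand) in the MHC class II region, beside TAP1 and PSMB9. Its level at day 4 was 14.1 and 26.4 CPM in the wild-type libraries and 0.725 and 1.53 CPM in the K700E libraries (20.3 ± 8.69 and 1.13 ± 0.572, SD, n = 2). The groups did not overlap, and both wild-type libraries were far above both K700E libraries; fewer cells that express the gene and less RNA per cell cannot be told apart in bulk RNA. The log2 change was -4.17 (SE 0.52), with an unadjusted p of 0.000282 and an adjusted p of 0.0512 by edgeR, just outside the threshold.

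The call for PSMB8 changed with the setting. Over 13 other settings its log2 change ran from -4.81 to -3.65 and its adjusted p from 5.42e-16 to 0.482, and 6 of them called it. Leaving out wild-type replicate 1 or 2 gave an adjusted p of 0.365 or 0.421, and leaving out K700E replicate 1 or 2 gave 1.15e-05 or 3.6e-06 (edgeR). Each of these fits has 1 library in an arm, which is assumed to vary like the pair in the other arm, so they bear little on the call.

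Reads were fewer in K700E at every PSMB8 intron; in all there were 746 and 1633 reads in wild type at day 4 and 52 and 92 in K700E. The intron nearest the 3′ end (32841048 to 32841530) was crossed by 238 and 467 reads in wild type at day 4 and by 22 and 22 in K700E. The intron next to it had 139 and 299 against 7 and 16 reads, and the other introns of the main transcript had 129 to 377 against 7 to 20 reads, except the first, which had 79 and 173 against 3 and 15. An alternative first exon, whose donor is at 32844278, gave 9 and 13 reads in wild type and 0 and 0 in K700E, too few to compare the 2 starts.

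At day 8 PSMB8 did not follow the labels. It was at 7.15 and 1.34 CPM under the wild-type label and 24.1 and 0.661 CPM under the K700E label, so each pair held a high and a low library. Set beside the known target acceptors, the library labelled wild type day 8 replicate 2 combined 1.34 CPM of PSMB8 with a median cryptic use of 70.7%, and K700E day 8 replicate 2 combined 0.661 CPM with 62.4%. Wild type day 8 replicate 1 combined 7.15 CPM with 2.01%, and the library labelled K700E day 8 replicate 1 combined 24.1 CPM with 8.77%. In the test as labelled the log2 change was 1.5 (SE 1.62, adjusted p 1 by edgeR).

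The neighbours of PSMB8 overlapped between the genotypes at day 4. PSMB9, the counterpart of PSMB6 and a near neighbour of PSMB8 in the genome, was at 19 and 19.3 CPM in wild type and 16.6 and 30.5 in K700E. At day 8 it was at 22 and 35.0 CPM under the wild-type label and 31.9 and 9.41 under the K700E label, with overlap on both days. TAP1, the peptide transporter gene that lies between them, was at 57.3 and 50.2 CPM in wild type and 40 and 53.0 in K700E at day 4. Of the 8 genes listed as interferon response, none was called and 2 had a log2 change above 0 (51.4% of all genes did). Their summed level was 917 and 978 CPM in wild type and 845 and 963 in K700E. The largest of these changes were those of GBP1, at 4.57 and 1.33 against 0.851 and 0.650 CPM (log2 change -1.96, adjusted p 0.178 by edgeR), and IFIT1, at 0.872 and 0.485 against 0.223 and 0.217 CPM (-1.61, adjusted p 0.221). HLA-E, an MHC class I gene with the lowest p of the list, went the other way, at 55.5 and 48.6 against 87.8 and 94.0 CPM (log2 change 0.81, SE 0.14, adjusted p 0.0825 by edgeR), and their part in the PSMB8 values was not tested.

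PSMB10, the counterpart of PSMB7, was at 20.3 and 14.7 CPM in wild type and 22.6 and 32.2 CPM in K700E at day 4. The groups did not overlap, but the log2 change, 0.65 (SE 0.27, adjusted p 0.242 by edgeR), did not pass the test. Per intron, PSMB8 made up 12.2% and 21.4% of PSMB8 plus PSMB5 in the wild-type libraries and 0.723% and 1.57% in K700E at day 4. PSMB9 made up 20.1% and 19.5% of PSMB9 plus PSMB6 in wild type and 14.3% and 24.4% in K700E, which overlapped. Together the 3 immunoproteasome subunits were 12.2% and 13.6% of the 6 catalytic subunits in wild type and 7.82% and 11.9% in K700E.

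**Figure D3:**
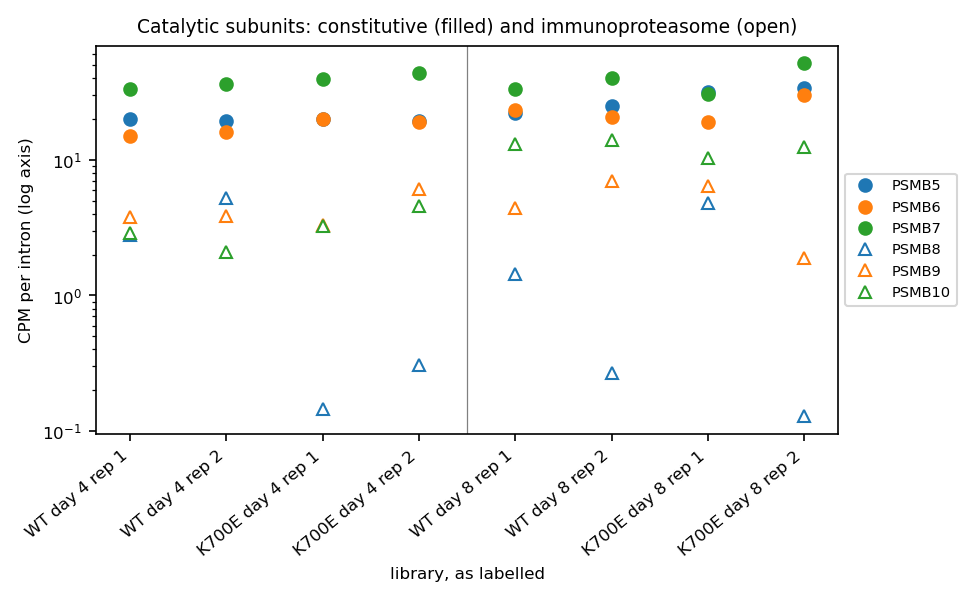
Level of the catalytic subunits in each library (x axis, as labelled), as CPM per intron on a log axis. Filled circles are the constitutive subunits PSMB5, PSMB6 and PSMB7 and open triangles of the same colour their immunoproteasome counterparts PSMB8, PSMB9 and PSMB10; PSMB8 is at 0.145 and 0.307 in K700E at day 4 and 0.129 in the library labelled K700E day 8 replicate 2, and PSMB10 is at 10.4 or above in all 4 day 8 libraries.

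In the 19S base the ATPase PSMC1 showed the widest difference at day 4, at 198 and 204 CPM in wild type and 274 and 279 CPM in K700E. Its groups were tight and did not overlap, with log2 change 0.46 (SE 0.12, adjusted p 0.128 by edgeR). At day 8 it was at 177 and 227 CPM under the wild-type label and 160 and 227 under the K700E label. PSMC3 and PSMC4 also had both K700E libraries above both wild-type libraries (log2 changes 0.14 and 0.23), while PSMC2, PSMC5 and PSMC6 overlapped, between -0.01 and 0.05. Of the large base scaffolds, PSMD2 was at 549 and 619 against 661 and 696 CPM and PSMD1 at 235 and 261 against 226 and 245 CPM. PSMD4, a ubiquitin receptor, was at 311 and 359 against 375 and 410 CPM, none of them called.

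Among the lid subunits, 7 of 8 had a log2 change above 0 at day 4 (51.4% of all genes did), with a median of 0.24. PSMD14 (POH1 or RPN11) was at 387 and 467 CPM in wild type and 619 and 704 CPM in K700E, which did not overlap. Its log2 change was 0.64 (SE 0.15, adjusted p 0.115 by edgeR), and at day 8 it was at 301 and 402 CPM under the wild-type label and 320 and 492 under the K700E label, with overlap. PSMD3 was at 246 and 249 against 316 and 341 CPM, log2 change 0.41 (SE 0.12, adjusted p 0.149; at day 8 282 and 328 as labelled wild type, 313 and 399 as labelled K700E). The lid subunit PSMD13 was at 374 and 405 against 479 and 531 CPM, a log2 change of 0.38. PSMD7 and PSMD12 did not overlap either, at 0.19 and 0.25, and PSMD6 and PSMD11 overlapped. PSMD8 was the lid subunit with lower values in K700E, 175 and 159 against 179 and 190 CPM.

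The activators differed in direction at day 4, and none was called by edgeR. PSME1, the alpha subunit of the interferon-inducible PA28 activator, was at 216 and 228 CPM in wild type and 145 and 156 CPM in K700E (222 ± 8.26 and 151 ± 7.86, SD, n = 2). The groups did not overlap, and the log2 change was -0.56 (SE 0.12, adjusted p 0.109 by edgeR). The day 8 levels of PSME1, 218 and 177 CPM as labelled wild type and 193 and 155 as labelled K700E, overlapped. Its partner PSME2, with which it forms 1 ring, was at 167 and 176 against 161 and 170 CPM, log2 change -0.05 (SE 0.12), within the spread of the replicates. PSME3, the nuclear PA28 gamma, was at 163 and 197 against 245 and 275 CPM, log2 change 0.53 (SE 0.15, adjusted p 0.145), and stood at 260 and 286 CPM as labelled wild type and 301 and 315 as labelled K700E at day 8. PSME4, the PA200 activator, overlapped between the groups (672 and 793 against 778 and 859 CPM), and the inhibitor PSMF1 was at 95 and 94.5 against 89.7 and 86.3 CPM.

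Of the assembly chaperones, PSMD9 (p27) was at 46.9 and 44.4 CPM in wild type and 28.1 and 32.0 CPM in K700E at day 4. The groups did not overlap; with the introns it shares counted, the log2 change was -0.60 (SE 0.16, adjusted p 0.132 by edgeR), while at day 8 PSMD9 was at 34.0 and 32.0 CPM as labelled wild type and 37.9 and 45.4 as labelled K700E. The chaperone PSMG4 was at 12.9 and 13.7 against 15.9 and 24.0 CPM, log2 change 0.59 (SE 0.26, adjusted p 0.265), and at day 8 9.89 and 23.1 CPM as labelled wild type and 15.2 and 15.2 as labelled K700E. PSMD5 and PSMD10 lay lower in both K700E libraries, by less than PSMD9, at log2 changes of -0.16 and -0.17. PSMG1, PSMG2 and PSMG3 overlapped between the groups, at log2 changes of 0.14 to 0.33.

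The day 4 groups also differed in lineage markers. ITGA2B, the megakaryocyte integrin, was at 11.9 and 21.1 CPM in wild type and 99.3 and 100 CPM in K700E (log2 change 2.60, SE 0.29, adjusted p 0.0418 by edgeR). Megakaryocyte markers summed to 12.2 and 21.5 CPM in wild type and 101 and 102 in K700E, with ITGB3 at 0.265 and 0.259 against 1.51 and 1.27, while PF4 was at 0 in 3 of the 4 day 4 libraries and GP9 at 0 to 0.129 CPM. Lymphoid markers summed to 1330 and 1560 CPM in wild type and 3050 and 2040 CPM in K700E, nearly all of it PTPRC, while CD3E and CD79A stayed at 1.75 CPM or below. Epithelial markers summed to 872 and 990 against 696 and 493 CPM, with 0 of 6 tested above 0; ELF3 was at 16.1 and 6.04 against 0.502 and 0.0167 CPM and CLDN7 at 2.29 and 2.56 against 0.907 and 0.333 CPM. Erythroid markers summed to 2060 and 1640 CPM in wild type and 1630 and 982 in K700E, with 2 of 8 above 0 (51.4% of all genes were). These 2 were GATA1, at 134 and 122 against 161 and 148 CPM without overlap (log2 change 0.28, adjusted p 0.289 by edgeR), and HBE1, at 68.2 and 76.9 against 90.4 and 60.6 CPM (0.06). ALAS2, the erythroid enzyme of haem synthesis, was at 621 and 485 against 341 and 142 CPM (log2 change -1.19, adjusted p 0.186 by edgeR), and EPOR, the erythropoietin receptor, at 5.15 and 5.71 against 4.70 and 3.18 CPM. Their part in the proteasome values was not tested.

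As labelled, 0 of 46 proteasome genes passed the test at day 8, against 0 of 13990 genes in all (0.0%). At an unadjusted p under 0.05 edgeR had 1 proteasome gene and 408 of all genes, and DESeq2 called 0 of the 46 and 27 genes in all. That gene was the chaperone PSMG1, at 94.9 and 126 CPM under the wild-type label and 177 and 166 under the K700E label (log2 change 0.60, SE 0.23). Libraries labelled K700E lay above both labelled wild type in 10 of the 46 (19.3% of all genes) and below them in 3 (13.0%). The median log2 change over the 46 genes was 0.04, and 0.01 over all genes. For 3 of the 46 (6.52%, against 8.31% of all genes) the K700E libraries lay on opposite sides of wild type on the 2 days. No gene, proteasome or other, passed the test that the K700E difference itself differed between the days (0 of 14902 by edgeR's interaction term, 1371 at an unadjusted p under 0.05, 3 of them proteasome genes); DESeq2 was not run on that term.

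Between the days proteasome genes were called at about the rate of all genes. This fit has 4 libraries a side against 2 at day 4, so the numbers of calls cannot be set against each other. Between day 8 and day 4 (4 libraries each, mean of both labelled genotypes) 16 of 46 proteasome genes were called by edgeR, 34.8%, close to the 36.0% of all 14902 genes. Of these 5 rose (18.1% of all genes were called higher) and 11 fell (18.0%). With the shared introns counted PSMA2 and PSMA6 were also called, both lower, which made 18. With library size alone as the scaling, which moved the median of all genes by 0.17 on the log2 scale, 13 were called and the split became 8 higher and 5 lower, so the balance of directions depends on the scaling. All 4 day 8 libraries lay above all 4 day 4 libraries in 5 of the 46 (10.9%, against 16.9% of all genes) and below them in 13 (28.3%, against 18.2%). Leaving out wild type day 4 replicate 1 left 10 calls, leaving out its replicate 2 left 7, and leaving out K700E day 4 replicate 2 left 9.

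**Figure D4:**
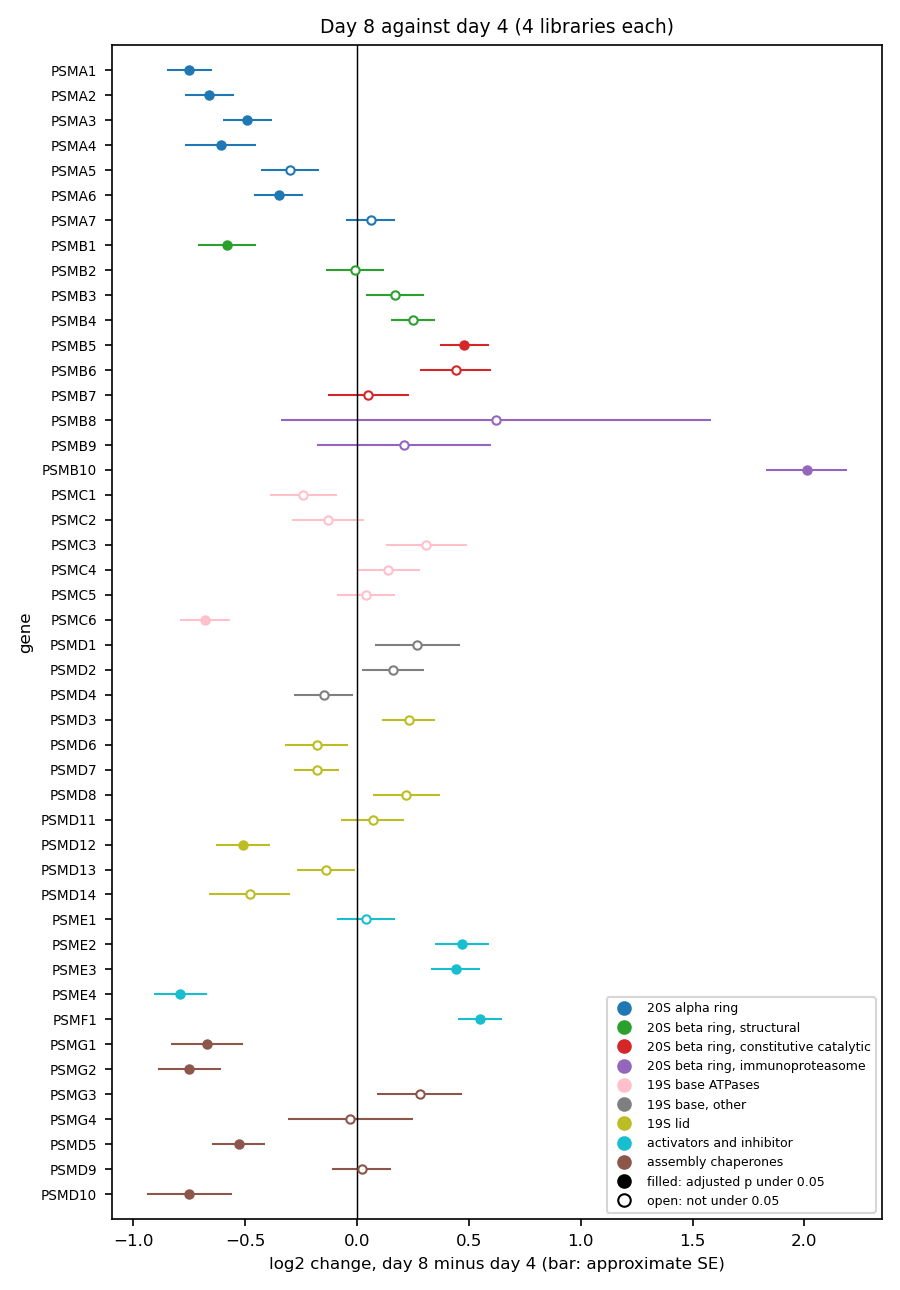
Change of each measured proteasome gene (rows, coloured by role) between day 8 and day 4, as log2 change with its approximate SE (4 libraries per day, introns shared with a second gene counted). Filled points had an adjusted p under 0.05: PSMB10 lies farthest to the right at 2.01, and the alpha subunits other than PSMA5 and PSMA7 are filled and below 0.

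Of the alpha subunits 3 of 7 were called lower from day 4 to day 8 and none higher, against 18.0% of all genes called lower, with a median log2 change of -0.30. With shared introns counted 5 of 7 were called lower, and the median was -0.49, against -0.0 over all genes. In introns of their own, PSMA1 was the only alpha subunit called without wild type day 4 replicate 1, without its replicate 2 or without K700E day 4 replicate 2. PSMA1 was at 632 to 680 CPM in the 4 day 4 libraries and 361 to 404 in the 4 day 8 libraries. Its log2 change was -0.75 (SE 0.10, adjusted p 0.0022 by edgeR), lower in 4 of 4 libraries. PSMA2 went from 387 to 455 CPM at day 4 to 230 to 300 at day 8 (log2 change -0.66, adjusted p 0.00457), a fall seen only with the shared introns. PSMA3, PSMA4 and PSMA6 fell by 0.49, 0.61 and 0.35 on the log2 scale, of which PSMA3 (adjusted p 0.0707) and PSMA4 (0.0605) were no longer called with library size alone. PSMA7 was at 211 to 240 CPM at day 4 and 202 to 266 at day 8, with overlap.

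Within the beta rings the genes parted. PSMB1 fell, from 439, 488, 581 and 627 CPM at day 4 to 324, 368, 310 and 401 at day 8 (log2 change -0.58, SE 0.13, adjusted p 0.0114 by edgeR). PSMB5 rose, from 40.6 to 43.1 CPM at day 4 to 46.7, 51.1, 66.0 and 72.0 at day 8 (log2 change 0.48, SE 0.11, adjusted p 0.0136). PSMB6 and PSMB7 were not called, at log2 changes of 0.44 and 0.05, nor were PSMB2, PSMB3 and PSMB4. With library size alone PSMB1 was no longer called, and PSMB4 and PSMB6 were called higher. PSMB1 was not called without wild type day 4 replicate 2, nor PSMB5 without any 1 of the 4 day 4 libraries or without K700E day 8 replicate 2.

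PSMB10 had the largest rise of the 46 genes. It lies on chromosome 16 from 67934502 to 67937087 (hg38, minus strand). Its level was 20.3, 14.7, 22.6 and 32.2 CPM at day 4 and 91.9, 98.3, 72.9 and 87.6 CPM at day 8 (22.4 ± 7.31 and 87.7 ± 10.8, SD, n = 4). All 4 day 8 libraries stood above all day 4 libraries, whatever their label, with log2 change 2.01 (SE 0.18, adjusted p 0.000847 by edgeR). Per intron it was 5.47% to 9.54% of PSMB10 plus PSMB7 at day 4 and 19.5% to 28.3% at day 8. PSMB8 and PSMB9 were not called between the days (log2 changes 0.62, SE 0.96, and 0.21, SE 0.39).

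Of the 6 ATPases only PSMC6 was called, from 296 to 337 CPM at day 4 to 180 to 214 at day 8 (log2 change -0.68, SE 0.11, adjusted p 0.00367 by edgeR). In the lid only PSMD12 was called, from 240 to 321 CPM to 178 to 218 CPM (log2 change -0.51, adjusted p 0.0144). None of PSMD1, PSMD2 and PSMD4 was called, while 36.0% of all genes were. With library size alone PSMC6 was still called, PSMD12 was not, and PSMD3 was called higher. Without wild type day 4 replicate 2 or K700E day 4 replicate 2, PSMD12 was not called.

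Of the activators and the inhibitor 4 of 5 were called, against 36.0% of all genes. Without wild type day 4 replicate 1 or either K700E day 4 replicate, PSME4 and PSMF1 alone of the 5 were called. PSME2 also lost its call without wild type day 4 replicate 2 or K700E day 8 replicate 1, and PSME3 without K700E day 8 replicate 2. PSME4 had the largest fall of the 46 genes, from 672, 793, 778 and 859 CPM at day 4 to 468, 391, 478 and 430 at day 8. The days did not overlap (775 ± 77.7 and 442 ± 39.5, SD, n = 4), with log2 change -0.79 (SE 0.12, adjusted p 0.00331 by edgeR). PSMF1, the inhibitor of the 20S core, rose from 86.3 to 95 CPM to 128 to 141 CPM (log2 change 0.55, adjusted p 0.00541). PSME2 rose from 161 to 176 CPM to 206 to 257 CPM (0.47, adjusted p 0.0221), and PSME3 by 0.44 (adjusted p 0.0225), with its days overlapping. PSME1 was at 145 to 228 CPM at day 4 and 155 to 218 at day 8 (log2 change 0.04, SE 0.13) and was not called.

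Among the 7 chaperones 4 were called lower (PSMG1, PSMG2, PSMD5 and PSMD10), against 18.0% of all genes, and none higher, against 18.1%. PSMG1 and PSMG2, which pair as a heterodimer that helps build the alpha ring, went from 167 to 276 and 99.3 to 135 CPM at day 4 to 94.9 to 177 and 55.8 to 78.7 CPM at day 8. Their log2 changes were -0.67 (SE 0.16, adjusted p 0.0162 by edgeR) and -0.75 (SE 0.14, adjusted p 0.00559). PSMD10 (gankyrin) went from 30.3 to 38.2 CPM to 15.5 to 25.0 CPM, and PSMD5 from 163 to 197 CPM to 98.1 to 144 CPM. PSMG3, PSMG4 and PSMD9 were not called, and with library size alone PSMD5 and PSMD10 were not either. Without wild type day 4 replicate 2 PSMG2 was the only chaperone called; PSMG1 also lost its call without K700E day 4 replicate 2, and PSMD10 without wild type day 4 replicate 1, K700E day 4 replicate 1 or K700E day 8 replicate 1. Lineage markers also moved between the days, while 18.1% of all genes were called higher and 18.0% lower. Of 8 erythroid markers EPOR rose and HBZ, HBE1 and ALAS2 fell. The embryonic globin HBZ was at 8.09 to 37.3 CPM at day 4 and 1.84 to 7.20 at day 8. Of the 6 epithelial markers tested KRT8 and KRT18 rose, by 1.07 and 1.15 on the log2 scale (adjusted p 0.0285 and 0.00378 by edgeR), and EPCAM fell by 2.11 (adjusted p 0.00832). The leukocyte marker PTPRC fell by 1.05 (adjusted p 0.0183). Their part in the proteasome values was not tested.

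Of 32 listed partners and ubiquitin suppliers of the proteasome 31 were tested. At day 4 edgeR called none between K700E and wild type, and 8 had an unadjusted p under 0.05, against 2979 of 13991 genes in all. A log2 change above 0 was found in 12, against 51.4% of all genes (median -0.04, against 0.02 over all genes). The largest differences at day 4 were ZFAND2A, an arsenite-inducible proteasome-associated protein, at 41.1 and 37.1 against 27.0 and 20.9 CPM (log2 change -0.70, adjusted p 0.137 by edgeR), and ZFAND5 at 124 and 108 against 84.1 and 65.0 CPM (-0.63, adjusted p 0.138). Between the days 6 of the 31 rose and 14 fell (18.1% and 18.0% of all genes; median -0.30, against -0.0), of which 4 are named here after their values were seen. ADRM1, the ubiquitin receptor RPN13, had the largest rise, from 47.3 to 64.2 CPM at day 4 to 118 to 213 at day 8 (log2 change 1.47, SE 0.19, adjusted p 0.00172). UBA6, a ubiquitin-activating enzyme, had the largest fall, from 360 to 474 CPM to 136 to 187 CPM (-1.35, SE 0.15, adjusted p 0.00119). POMP, the chaperone that matures the 20S core, fell by 0.70 (adjusted p 0.00302), and UBB, a polyubiquitin gene, rose by 0.95 (adjusted p 0.00147).

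NFE2L1, the gene of NRF1, was at 52.5 and 52.8 CPM in wild type and 43.6 and 41.7 CPM in K700E at day 4 (log2 change -0.30, SE 0.13, adjusted p 0.266 by edgeR). Of 14 other NRF1 and NRF2 pathway genes 13 were tested, and edgeR called none at day 4. An unadjusted p under 0.05 was found for 5, against 2979 of 13991 genes in all. A log2 change above 0 was found for 3, against 51.4% of all genes, and the median was -0.39, against 0.02. Between the days 5 of the 13 rose and 6 fell (18.1% and 18.0% of all genes). SLC7A11, the cystine transporter, was at 94.1 and 85.3 CPM in wild type and 48.0 and 28.8 CPM in K700E at day 4 (log2 change -1.22, SE 0.26, adjusted p 0.103), and MAFF, a small MAF protein, at 1.46 and 1.88 against 0.948 and 0.717 CPM (-1.0, adjusted p 0.242). SLC7A11 fell to 2.45 to 6.98 CPM at day 8 (log2 change -3.64, adjusted p 0.000851), and GCLM, a glutathione synthesis enzyme, fell by 1.51 (adjusted p 0.00265); both were chosen for this after their values were seen.

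Promoters of 42 of the 48 genes were matched by symbol in the RefSeq promoter set (GRCh38.p14, 250 bases before to 50 after the start; some genes have more than 1 start, 51 promoters in all). The core of the antioxidant response element, the motif that NRF1 and NRF2 bind with a small MAF protein, was searched on both strands as TGACNNNGC or TGAGNNNGC. One or the other form was in 23 of the 51 promoters (45.1%), against 29.1% of all 35116 promoters; the first form alone was in 29.4% against 13.3%. The CCAAT box (CCAAT, both strands) was in 39.2% against 34.6%, and the E-box (CACGTG) in 5.88% against 7.26%. A match is a run of letters, not a bound site.

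Promoters are shown for the genes with the largest differences, PSMB8 with both of its starts, PSMA5 and PSMD14 between genotypes and PSMB10 between days. They are written 5′ to 3′ on the gene's strand, with matches to any of these motifs in capitals. The PSMB8 starts lie at chr6:32844630-32844929 and chr6:32843998-32844297 (minus strand), PSMA5 at chr1:109426399-109426698 (minus), PSMD14 at chr2:161308175-161308474 (plus) and PSMB10 at chr16:67936801-67937100 (minus).
PSMB8 upstream start: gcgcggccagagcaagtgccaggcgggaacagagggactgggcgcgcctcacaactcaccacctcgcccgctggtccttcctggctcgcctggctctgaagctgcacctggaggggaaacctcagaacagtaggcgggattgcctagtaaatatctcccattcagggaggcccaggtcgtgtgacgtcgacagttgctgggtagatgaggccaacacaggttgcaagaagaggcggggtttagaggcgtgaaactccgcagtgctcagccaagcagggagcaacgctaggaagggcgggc
PSMB8 downstream start: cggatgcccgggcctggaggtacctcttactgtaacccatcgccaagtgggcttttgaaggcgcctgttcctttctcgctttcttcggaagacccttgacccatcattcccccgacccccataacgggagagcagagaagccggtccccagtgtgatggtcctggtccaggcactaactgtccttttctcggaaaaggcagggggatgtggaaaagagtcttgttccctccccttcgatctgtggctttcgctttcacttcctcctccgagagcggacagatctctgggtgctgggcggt
PSMA5: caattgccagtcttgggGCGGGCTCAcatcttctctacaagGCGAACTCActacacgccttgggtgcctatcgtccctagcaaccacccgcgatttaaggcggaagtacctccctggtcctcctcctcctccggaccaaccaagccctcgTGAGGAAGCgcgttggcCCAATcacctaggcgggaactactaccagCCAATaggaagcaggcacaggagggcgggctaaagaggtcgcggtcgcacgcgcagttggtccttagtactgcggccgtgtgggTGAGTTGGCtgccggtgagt
PSMD14: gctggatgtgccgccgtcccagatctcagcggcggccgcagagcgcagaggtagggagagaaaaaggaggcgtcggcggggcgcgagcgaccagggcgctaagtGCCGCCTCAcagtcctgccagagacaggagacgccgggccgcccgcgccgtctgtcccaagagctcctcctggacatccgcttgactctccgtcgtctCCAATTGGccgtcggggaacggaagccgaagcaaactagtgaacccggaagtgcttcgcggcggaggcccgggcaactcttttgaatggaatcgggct
PSMB10: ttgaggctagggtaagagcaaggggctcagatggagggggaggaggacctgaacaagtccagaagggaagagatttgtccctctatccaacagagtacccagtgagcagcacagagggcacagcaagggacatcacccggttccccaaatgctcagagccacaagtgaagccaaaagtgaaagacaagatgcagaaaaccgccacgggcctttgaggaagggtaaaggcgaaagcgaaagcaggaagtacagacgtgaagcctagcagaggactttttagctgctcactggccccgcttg
PSMA5 and PSMD14 both hold the TGAGNNNGC form and the CCAAT box. Neither PSMB8 promoter nor that of PSMB10 holds any of the 4 motifs in these letters.

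K700E is known for raising the use of acceptors a short way upstream of the normal one, and such acceptors were little used in the proteasome genes. Within 50 nt upstream of the main annotated acceptor, 40 members had 135 acceptors with a unique read, 10 of them in annotated introns, with a median of 3 reads over the 8 libraries and at most 112. Such reads were found at 24.0% of donors in the proteasome genes, against 10.7% in the other protein-coding genes. These shares were not adjusted for the reads per donor. Per 10000 reads at the main acceptors, the proteasome genes had 2.63 and 1.64 such reads in wild type at day 4 and 3.06 and 1.86 in K700E, which overlapped. In the other protein-coding genes the same rate was 10.9 and 9.76 in wild type and 15.1 and 13.8 in K700E, which did not overlap. At day 8 the proteasome genes had 1.34 and 3.86 under the wild-type label and 2.48 and 2.68 under the K700E label. The other protein-coding genes had 11.4 and 19.1 under the wild-type label and 10.9 and 17.4 under the K700E label.

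No acceptor or donor of a proteasome gene was called at day 4. A call needed an adjusted p under 0.05 and a difference of 5 percentage points in the share of reads at the shared site. For acceptors 0 of 298 junctions in proteasome genes were called by edgeR's diffSpliceDGE, against 0.468% of 69838 junctions in all, and 24 had an unadjusted p under 0.05 (8.05%, against 7.02% in all). For donors 0 of 297 were called, against 0.0309% of 64625, and 20 had an unadjusted p under 0.05 (6.73%, against 5.65% in all). With limma's diffSplice 0 of their junctions were called at either kind of site. Of the near-upstream acceptors deep enough to test, 0 of 14 in proteasome genes were called. Over all genes 153 of 2443 were called, 150 of them higher in K700E (6.14% of the 2443). Of the 14, 4 had an unadjusted p under 0.05 (28.6%, against 29.8% in all genes). Mean use was higher in K700E at 8 of the 14, a share that was not counted over all genes.

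The 6 near-upstream acceptors with the largest difference in mean use at day 4 were little used or belonged to donors with few reads. In PSMG1 the acceptor at chr21 39181902, 23 nt upstream, took 0.309% and 0.111% of the reads of its donor in wild type and 1.52% and 0.874% in K700E (9 of 1030 reads in K700E replicate 2, adjusted p 0.388 by edgeR). In PSMA6 an annotated acceptor 18 nt upstream (chr14 35312862) took 0.342% and 0.200% in wild type and 1.32% and 0.359% in K700E. In PSMD12 one lying 32 nt upstream (chr17 67344813) went the other way, 1.53% and 0.930% in wild type and 0.252% and 0.595% in K700E (adjusted p 0.523). At day 8 these took 0% and 0% (PSMG1), 0% and 0.457% (PSMA6) and 0.690% and 0.200% (PSMD12) under the wild-type label, and 0.444% and 1.42%, 0.942% and 0.685%, and 1.15% and 0% under the K700E label.

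The acceptors of PSMC3, PSMC6 and PSMC5 in this set had 55, 11 and 5 reads over the 8 libraries and were not tested. The one in PSMC3, 4 nt upstream at a minor donor with 3 to 24 reads per day 4 library, took 53.8% and 66.7% in wild type and 12.5% and 40% in K700E, with Wilson intervals that overlap (20.8% to 93.9% in wild type replicate 2, 16.8% to 68.7% in K700E replicate 2), and 25.5%, 39.3%, 18.2% and 34.1% at day 8. In PSMC6, 16 nt upstream, use was 8.33% and 0% in wild type, 2.04% and 12.8% in K700E, and 0%, 0%, 3.23% and 0% at day 8. In PSMC5, 19 nt upstream, it was 1.27% and 1.27% in wild type, 0% and 0% in K700E, and 0%, 0%, 0% and 1.60% at day 8.

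Acceptors of PSMA7, PSMD7, PSMD1, PSME2 and PSME4 were singled out after their values were seen. PSMA7 had the lowest p of all proteasome junctions, at an acceptor 13 nt upstream (chr20 62136963). It took 0.0427% and 0% of its donor's reads in wild type and 0.598% and 0.464% in K700E (adjusted p 0.0627 by edgeR), and at day 8 0% and 0.845% under the wild-type label and 0.173% and 0.606% under the K700E label. In PSMD7 an acceptor 18 nt upstream (chr16 74304284) took 0.147% and 0% in wild type and 0.501% and 0.378% in K700E (adjusted p 0.469). Both took under 1% of the reads of their donor in each library.

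Larger differences lay farther from the main acceptor. In PSMD1 an unannotated acceptor at chr2 231166380, 4185 nt upstream of the main one, took 0% and 1.16% of its donor's reads in wild type and 4.88% (95% Wilson interval 3.68% to 6.45%) and 4.21% (3.06% to 5.77%) in K700E (adjusted p 0.130 by edgeR). At day 8 it took 0% and 3.56% under the wild-type label and 0.239% and 3.70% under the K700E label. In PSME2 the donor at chr14 24146207 mostly joins an acceptor at 24145773, and an annotated alternative lies 124 nt upstream at 24145897. That alternative took 5.26% (3.5% to 7.84%) and 3.21% (2.01% to 5.08%) in wild type and 12.2% (9.82% to 15.2%) and 12.8% (10.0% to 16.2%) in K700E, which did not overlap, although its adjusted p was 0.134. At day 8 it took 0.505% and 5.78% under the wild-type label and 2.39% and 15.3% under the K700E label. Intervals cover counting error only.

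A further annotated acceptor of PSME2, at 24145912, lies 15 nt upstream of the alternative. It had 0 and 0 reads in wild type and 5 and 3 in K700E at day 4. At day 8 it had 0 and 67 reads under the wild-type label (0 of 1188 reads, a Wilson upper bound of 0.322%, and 7.45% of 899) and 1 and 65 under the K700E label (0.126% of 794 and 6.85% of 949). It had too few reads at day 4 for the test. In PSME4 an unannotated acceptor 1410 nt upstream of the main one (chr2 53870949) went the other way, with 1.15% and 1.45% in wild type and 0.373% and 0% in K700E (adjusted p 0.435 by edgeR).

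**Figure D5:**
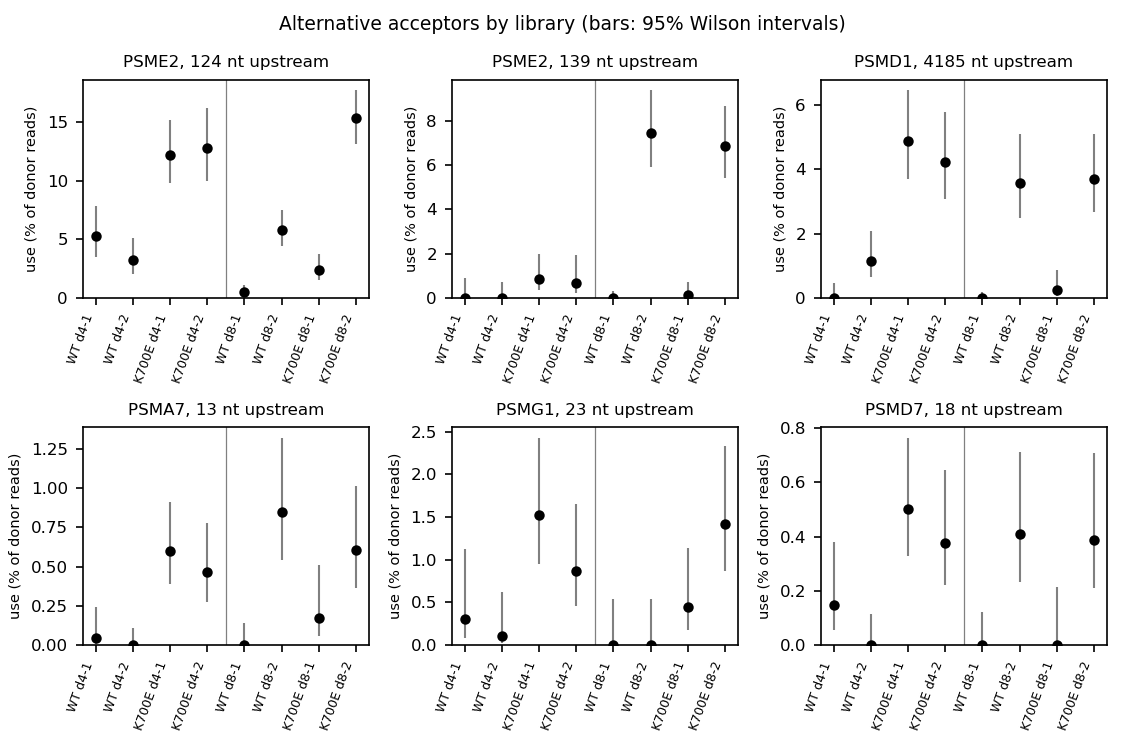
Use of 6 alternative acceptors of proteasome genes in each library (x axis, as labelled), as the percentage of reads of their donor, with 95% Wilson intervals as bars. Panels are PSME2 at 124 and 139 nt, PSMD1, PSMA7, PSMG1 and PSMD7, of which all but PSMG1 were singled out after their values were seen. Both K700E day 4 libraries lie above both wild-type day 4 libraries in every panel, which reflects that choice. Acceptors of PSMD12 and PSME4 that went the other way are not shown. At day 8 the libraries labelled wild type replicate 2 and K700E replicate 2 are the 2 higher ones in every panel except that of PSMG1.

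The sequences at these acceptors are shown where a GENCODE v29 transcript that retains the intron holds them (hg38). The part of these sequences in the choice between sites was not tested. Those of PSMD7, PSMA6 and PSMC6 run from 30 bases of intron into 20 bases downstream, 5′ to 3′, with the last intron bases, AG in each case, in capitals. PSMD7 is at chr16:74304255-74304304 (plus), PSMA6 at chr14:35312833-35312882 (plus) and PSMC6 at chr14:52723919-52723968 (plus). The PSME2 window (chr14:24145877-24145957, minus) holds both alternative acceptors, with the AG of each in capitals.
PSMD7, 18 nt upstream of the main acceptor: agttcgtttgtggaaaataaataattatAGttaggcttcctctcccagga
PSMA6, 18 nt upstream: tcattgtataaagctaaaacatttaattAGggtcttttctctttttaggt
PSMC6, 16 nt upstream: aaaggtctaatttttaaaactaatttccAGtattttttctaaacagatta
PSME2, 139 and 124 nt upstream: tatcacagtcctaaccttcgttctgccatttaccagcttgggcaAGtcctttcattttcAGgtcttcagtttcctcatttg
Of the 20 bases before the AG, 7 are pyrimidines in PSMD7, 9 in PSMA6 and 12 in PSMC6. At the PSME2 acceptors 11 are at 24145912 and 13 at 24145897.

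Alternative donors differed by 5 points or more at 9 of 297 tested junctions, in 5 genes, against 14763 of 64625 junctions in all. None of the 9 was called (lowest adjusted p 1 by edgeR among these). The best covered was PSMG4, in which the donor at chr6 3264326 gave 139 and 216 reads in wild type and 214 and 276 in K700E, 35.2% and 29.3% of the reads at their shared acceptor on average. In PSMD6 the donor at chr3 64022642 gave 27.8% of the reads at its acceptor in wild type and 18.3% in K700E on average (unadjusted p 0.0967). The alternative first exon of PSMB8 was 1 of the 9, at 8.61% in wild type and 0% in K700E on average. In K700E the other donor of its acceptor had only 3 and 15 reads. The widest difference was in PSMC3, at the donor at chr11 47426116, with 11.6% in wild type and 28.3% in K700E on average. That donor had 6 and 1 reads in wild type and 21 and 6 in K700E. For PSMB8, PSMC3, PSMD6 and PSMG4 both donors of a shared acceptor are among the 9, so these are not separate changes.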

How the data were processed

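The deposited files are the splice junction tables of STAR 2.7.0e, 1 per library, aligned to hg38 with GENCODE v29, per the file headers; reads were trimmed with cutadapt, per the submitters' processing notes. The values used are the authors' counts of uniquely mapped reads per junction. Junction counts were summed over the annotated introns of each gene and fitted across all genes with edgeR 4.0.16 (TMM, filterByExpr, quasi-likelihood test, Benjamini-Hochberg adjusted p under 0.05), in 2 libraries against 2 per day, or all 8 for the day and the interaction. Fits left out introns of 2 or more genes (4.168% of unique reads); displayed CPM and fits said to count shared introns kept them for the 5 members that have them. SE is the log2 change divided by the square root of F, an approximation. Genes without introns, and RNA that is not spliced, are not seen.

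Acceptor and donor use was tested with diffSpliceDGE on junctions with at least 5 reads in 2 libraries and a mean of 20 reads per library at the shared site. The main acceptor of a donor is its annotated one with most reads, and an acceptor's coordinate is the last base of the intron. DESeq2 1.42.0, limma 3.58.1, other scalings, no filter, multi-mapped reads, a replicate block, shared introns, newer dispersions and leaving out each library were the alternatives. Fits were tested on simulated data. Python 3.11.15 and R 4.3.3 were used.

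The genes and the lists of partners, NRF pathway genes and markers (erythroid, megakaryocyte, epithelial, lymphoid, interferon) were chosen with earlier results of these data known. Of the markers, 2 are not reported here. Values in every library are given for the 10 genes with the largest day 4 change, the largest day change in each direction and the 6 near-upstream acceptors (within 50 nt, at least 5 reads) with the largest difference; of the lists, those called at day 4 and the 2 largest day 4 changes are named, and other list genes, at day 4 and between the days, were chosen after their values were seen.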

Additional observations from a re-analysis of the deposited data

Results flagged for a closer look

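For 3 proteasome genes the K700E libraries lay on one side of wild type at day 4 and on the other at day 8 as labelled (6.52% of 46, against 8.31% of all 14902 genes), and the difference was tested with edgeR's interaction term over 8 libraries. The day 8 minus day 4 difference in log2 change was 0.96 for PSMD9 (SE 0.27, unadjusted p 0.00796, adjusted p 0.472), which was lower in K700E at day 4 and higher at day 8. It was -0.85 for PSMB10 (SE 0.36, unadjusted p 0.0476, adjusted p 0.541), higher at day 4 and lower at day 8, and 0.47 for PSMD5 (SE 0.24, unadjusted p 0.088, adjusted p 0.593), lower at day 4 and higher at day 8. None passed the adjusted threshold, the libraries tested are those that selected the genes, and 2 of the 4 day 8 libraries went against their labels at the known target acceptors.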

How the results depend on the processing

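At day 4 edgeR called 0 proteasome genes; DESeq2 called 8, no expression filter 5, newer dispersions 1 (PSMB8), and leaving out each library in turn 0 to 6 (6 without K700E replicate 1, 3 without K700E replicate 2, 0 without either wild-type replicate; the lone library of an arm is assumed to vary like the other group). Over all genes the same settings gave 74 calls by edgeR, 1634 by DESeq2, 1567 without the filter, 0 with 8 libraries in 1 model and 0 to 2536 with a library left out. Between the days, leaving out each library gave 7 to 18 proteasome calls (10 without wild type day 4 replicate 1, 7 without its replicate 2, 9 without K700E day 4 replicate 2). PSMB10 and PSME4 were called in all 16 other settings, at log2 changes of 1.84 to 2.14 and -0.87 to -0.62. PSMA2 turned from 0.28 to -0.66 with shared introns counted (adjusted p 0.00457) and to -0.06 without K700E day 8 replicate 2 (-0.06 to 0.5 with each library left out), and PSMA6 from 0.15 to -0.35 with shared introns (adjusted p 0.041); most of their reads lie in shared introns. Acceptor, donor and day 8 calls in proteasome genes stayed at 0 in each setting run, while over all genes acceptor calls ran from 8 to 110 and donor calls from 0 to 58 with a library left out, against 327 and 20; both were 0 with 8 libraries in 1 model, and limma gave 81 donor calls. Of 443 values of named genes and acceptors under alternatives, 379 kept their side of the threshold, 38 lost a call, 23 gained one and 3 reversed.

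Replicate numbers did not pair the libraries (correlation of deviations 0.0964 between the day 4 groups, 0.246 between the day 8 groups and -0.177 between the K700E groups). With the replicate block 1 proteasome gene (PSMB8, adjusted p 0.0289) and 126 of all genes were called at day 4, 17 proteasome genes between the days, and 8 donor junctions over all genes. Depth limited the acceptors of donors with few reads, such as that of PSMC3, whose shares in single libraries have wide intervals.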
